A study of Mus musculus with 32 samples.

Results

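Ephrins, semaphorins and their receptors are the genes described here, taken by symbol from the 22337 genes of the deposited tables. Ephrin-A, ephrin-B, EphA, EphB, plexin and class 3 to 7 semaphorin symbols gave 51 genes. The rule used names only, but it was set with earlier results of these data known. They comprised 5 ephrin-A and 3 ephrin-B ligands, 9 EphA and 5 EphB receptors, 7 secreted class 3 semaphorins, 13 membrane-bound semaphorins and 9 plexin receptors. All 51 were found in the other table by gene identifier, and all had a position in the GENCODE vM21 annotation of GRCm38.

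RNA-seq libraries were made by a Smart-seq2 protocol from hippocampus (HPC), meninges and sorted meningeal lymphatic endothelial cells (mLECs) of male mice 6 months of age. HPC held 4 WT, 4 untreated 5xFAD and 4 light-treated 5xFAD libraries, and meninges and mLECs each held 4, 3 and 3. 5xFAD mice, a model of Alzheimer's disease, carry human transgenes under the neuronal Thy1 promoter on a C57BL/6J background, and WT mice were littermates without the transgenes. Light-treated mice had near-infrared light on the shaved scalp for 10 min under isoflurane, 3 times per week for 4 weeks, whereas untreated 5xFAD and WT mice had the same handling under room light. The RNA-seq libraries held no light-treated WT group, so that light was compared within 5xFAD mice. The mLECs were gated as DAPI-CD45-CD31+PDPN+ from 1 meninges per library.

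Ephrins are cell-surface ligands, anchored by GPI in the A class and by a membrane-spanning segment in the B class, and they bind Eph receptor tyrosine kinases on the neighbouring cell, where both sides can signal. Semaphorins bind plexins, which act on small GTPases and the cytoskeleton, and the secreted class 3 members mostly need a neuropilin as co-receptor. Both systems repel or attract growing axons in development, act at dendritic spines in the adult hippocampus, and take part in the growth and valves of blood and lymphatic vessels.

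Labels and markers were compared first. Total counts ranged between 13952825 and 23856476 in HPC, 6601143 and 14708202 in meninges, and 14231415 and 24207326 in mLECs. Thy1, whose promoter drives the transgenes, had an FPKM (fragments per kilobase of transcript, scaled to library size) of 170 to 189 in WT and 407 to 622 in 5xFAD HPC, light-treated or not. In meninges it was at 10.6 to 21.3 in WT, 18.7 to 23.9 in untreated and 13.6 to 15.6 in light-treated 5xFAD, which overlapped. In mLECs it was at 0 to 13.3 over the 10 libraries. Thy1 thus set the genotypes apart in HPC only. Replicate 3 of untreated 5xFAD HPC stood apart, with a summed FPKM of 5 dentate gyrus markers of 21.1 against 131 to 147 in the other 3 libraries of its group. Meningeal libraries carried choroid plexus markers at a summed FPKM between 15733 and 49264. In mLECs the endothelial marker Pecam1 was at 189 to 398 and the leukocyte marker Ptprc was listed at 0 in all 10 libraries. The sum of 7 lymphatic markers was only 38.0 and 55.7 in WT replicates 2 and 4, against 1156 to 9718 in the other 8. Ccl21a carried that gap, at 3.54 and 0 in replicates 2 and 4 and 998 to 9356 in the other 8. Lyve1 and Pdpn were at 0 in both. Pdpn did not set them apart, as it was also at 0 in untreated 5xFAD replicates 2 and 4. In light-treated replicate 3 it was at 0.04. Flt4 was at 34.4 and 30.3 in them, within 3.83 to 81.6 over all 10, and Prox1 at 0 and 5.71, the latter the highest of all. Where leaving out untreated HPC replicate 3 or these WT mLEC libraries changed a call or moved a fold change by more than 1.5 times, the value without them is given too. Tissue libraries hold many cell types, and fewer cells of a type cannot be told apart from less RNA per cell.

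Promoter sequence is shown for genes on which the comparisons turned. Of the 51 genes, 45 were found among the RefSeq promoter windows of GRCm38.p6, with 59 windows, and the 250 bases before each start were searched on both strands. The GC box GGGCGG lay in 74.6% of the members' windows and in 32.7% of all 32851 windows, while the TATA box letters TATAAA lay in 1.69% and 12.4%. The cAMP response element TGACGTCA lay in 1.69% and 1.55%, and the E-box CAGCTG in 15.3% and 13.0%. The median window held 16 CpG in the members and 6 among all. The last 100 bases before the start follow, 5′ to 3′ on the gene's strand, in lower case with these motifs in capitals. Sema5a differed between light-treated and untreated HPC, Ephb4 and Epha4 between the tissues, and Efnb2 was the member with the TATA letters.
Sema5a, chr15:32244713-32244812, plus strand: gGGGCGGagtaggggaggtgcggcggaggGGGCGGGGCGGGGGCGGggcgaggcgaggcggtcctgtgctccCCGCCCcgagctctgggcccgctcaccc
Epha4, chr1:77515089-77515188, minus strand: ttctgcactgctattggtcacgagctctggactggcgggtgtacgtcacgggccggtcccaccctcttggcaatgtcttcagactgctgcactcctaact
Ephb4, chr5:137350009-137350108, plus strand: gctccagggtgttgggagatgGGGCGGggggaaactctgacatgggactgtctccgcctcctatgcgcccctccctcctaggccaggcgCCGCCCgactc
Efnb2, chr8:8661243-8661342, minus strand: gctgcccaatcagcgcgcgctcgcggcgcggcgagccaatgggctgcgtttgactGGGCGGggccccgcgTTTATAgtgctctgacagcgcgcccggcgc
Sema5a held 5 GC boxes in this stretch, some sharing letters. Ephb4 held 2, Efnb2 had 1 GC box beside the TATA letters, and Epha4 had none of the 4 motifs here. A match is a run of letters and not a measured binding site.

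In WT HPC, the members of highest level per transcript length were the EphA receptors Epha4 and Epha7 and the ligand Efnb3. Epha4, a receptor that binds ephrins of both classes and lies on neurons and astrocytes, was at an FPKM of 78.4, 87.4, 95.4 and 117 in the 4 WT libraries. Efnb3, a ligand of EphB receptors and of EphA4, was at 60.5, 54.5, 53.0 and 53.1. Epha7 was at 45.9, 53.1, 53.5 and 58.2, so that Efnb3 and Epha7 overlapped and Epha4 lay above both in every library. The 9 EphA receptors together summed to 208 ± 23.1 (SD, n = 4), against 26.4 ± 1.98 for the 5 EphB receptors. The secreted class 3 semaphorins summed to 14.6 ± 1.07, and Sema3e, which signals through Plxnd1 without a neuropilin, made up most of it at 8.52 to 11.1.

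In WT meninges the order was another. Plxnb2, a plexin for class 4 semaphorins, was at an FPKM of 25.8, 21.2, 35.5 and 25.6. Sema3b, a secreted semaphorin, was at 21.9, 22.7, 22.0 and 15.4. Sema3f, a ligand of neuropilin-2, was at 6.51, 7.0, 28.9 and 20.0 and varied more than the others. Plxnb2 and Sema3b overlapped in their WT libraries, and Sema3f overlapped with both. EphA receptors summed to 23.6 ± 7.40 (SD, n = 4) here and class 3 semaphorins to 47.8 ± 10.

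**Figure D1:**
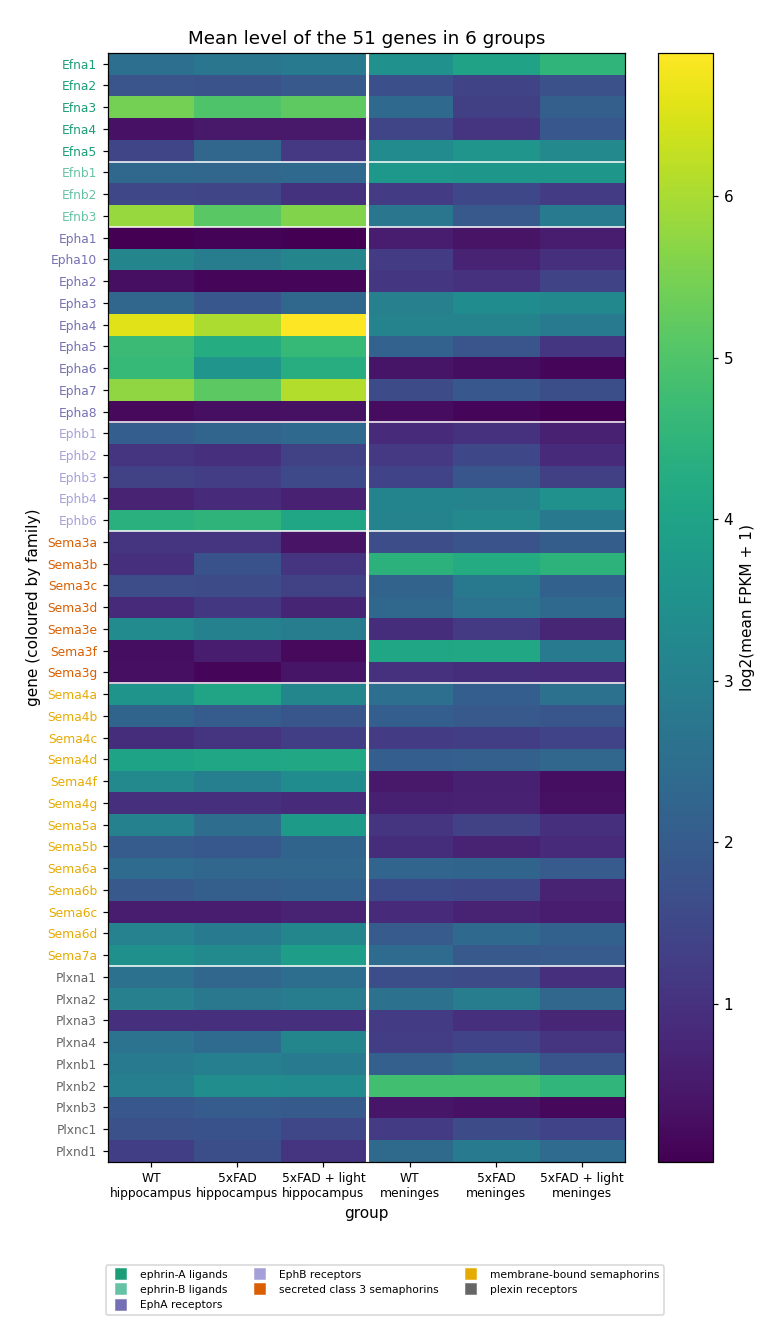
Mean FPKM of the 51 genes as log2(mean FPKM + 1), with the 6 groups of HPC and meninges in columns and genes in rows, gene names coloured by family and brighter cells standing for higher levels. Epha4, Epha7, Epha5 and Epha6 are brighter in HPC, where EphA receptors summed to an FPKM of 208 in WT, whereas Epha2, Epha3, Sema3b, Sema3f and Plxnb2 are brighter in meninges.

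WT meninges were compared with WT HPC in a fit of both tissues, in edgeR's quasi-likelihood test with Benjamini-Hochberg adjustment. Of 48 members tested, 39 passed an adjusted p of 0.05, where 73% of all 15132 genes tested did, so that a difference between tissues was no mark of the members. Higher in meninges were 15 members, where 39.9% of all genes were, and lower were 24, where 33.2% of all were. The median log2 fold change was -0.62 over the members and 0.12 over all genes.

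The direction followed the families in part. Of the secreted class 3 semaphorins, 6 of 7 were higher in meninges and Sema3e was lower. Of 12 membrane-bound semaphorins tested, none was higher and 8 were lower, and of 7 EphA receptors 5 were lower while Epha2 and Epha3 were higher. Among ephrin-A ligands 3 were higher and 1 was lower, and among 9 plexins 2 were higher and 6 were lower. No family was tested as a set.

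Sema3f had the largest rise, with a log2 fold change of 6.13 ± 0.61 (SE) and an adjusted p of 1.75e-08, from an FPKM of 0.09 to 0.4 in HPC. Its neighbour Sema3b (Sema3f at chr9:107681500-107710475, Sema3b at chr9:107597674-107609229) was at 0.47 to 2.08 in HPC and rose by 4.30 ± 0.34, with an adjusted p of 8.53e-10. Both are secreted, and no HPC library reached a meningeal one. Ephb4, the receptor of ephrin-B2 known from veins and lymphatic vessels, was at 0.83, 0.83, 0.49 and 0.44 in HPC and at 8.52, 6.40, 6.09 and 9.51 in meninges, 3.52 ± 0.29 higher on the log2 scale, with an adjusted p of 1.24e-09. Efna5, a ligand of EphA receptors, was at 2.19, 1.57, 1.42 and 1.76 in WT HPC and 9, 7.31, 10.5 and 9.46 in WT meninges, with a log2 fold change of 2.40 ± 0.51 and an adjusted p of 0.000301. Sema3d, another secreted semaphorin, was at 1.01, 0.77, 0.84 and 0.73 in WT HPC but at 3.91, 3.54, 4.5 and 4.09 in WT meninges, with a log2 fold change of 2.35. Efna4, also an EphA ligand, was at 0.41, 0.14, 0.29 and 0.32 in WT HPC but at 0.83, 2.61, 1.87 and 1.69 in WT meninges, with a log2 fold change of 2.47. For all 3 genes every WT meningeal library lay above every WT HPC library.

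Epha6 had the largest fall. Its FPKM was 20.4, 23.4, 28.2 and 22.6 in HPC and 0.89, 0.02, 0.24 and 0.14 in meninges, a log2 fold change of -6.12 ± 0.64 with an adjusted p of 4.18e-08. Sema4f, a membrane-bound semaphorin of neurons, fell by 4.55 on the log2 scale, Epha7 by 4.15, Epha4 by 3.61, the ligand Efna3 by 3.43 and Efnb3 by 3.38. Efna3 was at 5.48, 5.61 and 5.29 in 3 WT meninges and at 0.33 in replicate 2. Sema4f was at 8.93, 8.19, 7.38 and 9.85 in WT HPC and 0.31, 0.15, 0.58 and 0.59 in WT meninges. Epha4 was at 8.26, 5.44, 10 and 6.71 in WT meninges and Epha7 at 2.73, 1.66, 2.57 and 0.99, and for these 3 genes no library of the tissues overlapped. Members that did not pass were Efnb2 at -0.56 (adjusted p = 0.114 in edgeR), Ephb2 at 0.32 (0.296), Sema6a at -0.11 (0.681) and Ephb3 at -0.02 (0.956), among others. Efna1, Efna3 and Efna4 lie side by side on chromosome 3, and Efna3 was lower in meninges while Efna1 and Efna4 were higher. Efna3 and Efna4 share 14.1% and 10.5% of their exon bases with a gene on the opposite strand, which reads of an unstranded library cannot separate. Neuronal markers summed to 1964 to 2193 in WT HPC and 165 to 483 in WT meninges, and meningeal fibroblast markers to 40.8 to 75.0 and 1718 to 2386, and the part of cell makeup in these differences was not tested.

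**Figure D2:**
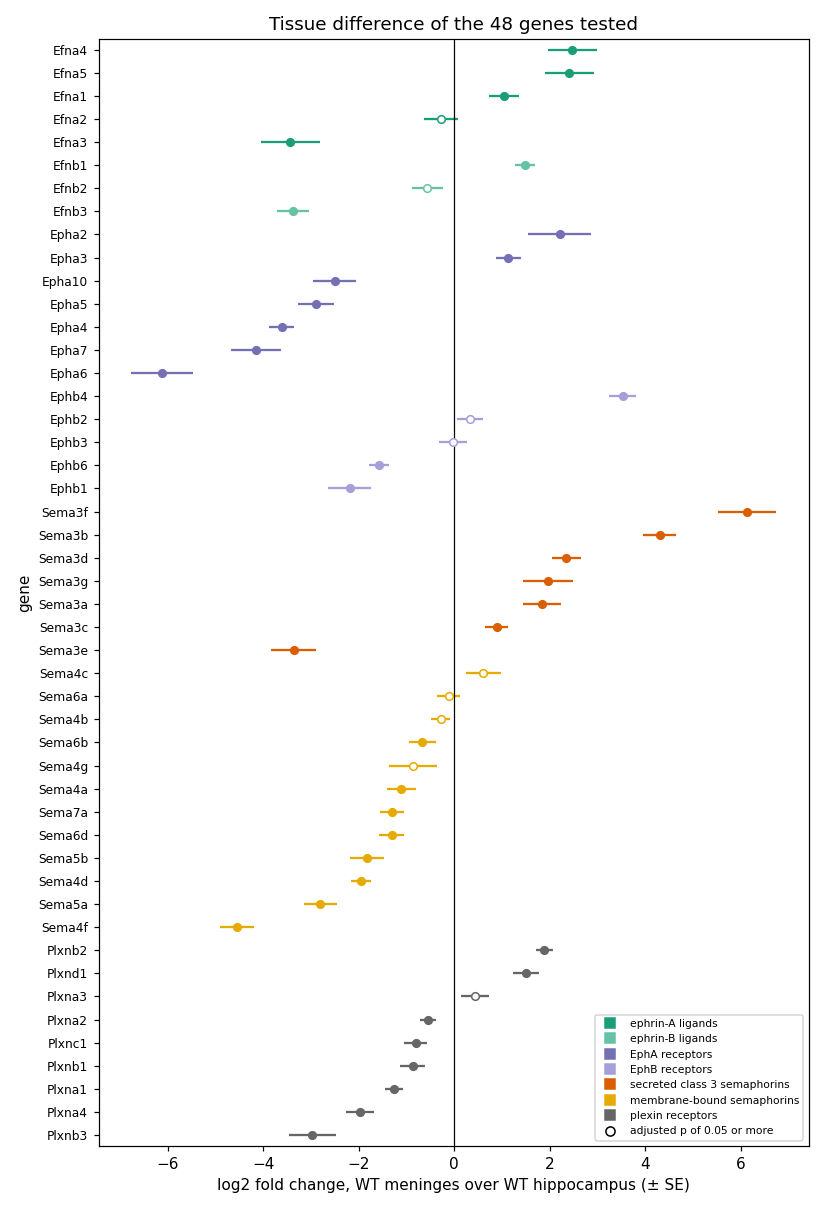
Log2 fold change with SE of WT meninges over WT HPC, 4 libraries each, for the 48 members tested in edgeR, grouped by family; open points did not pass an adjusted p of 0.05. Class 3 semaphorins lie to the right except Sema3e, and Sema3f at 6.13 and Epha6 at -6.12 mark the ends.

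The genotype was compared next, in untreated 5xFAD against WT HPC. None of 43 members passed edgeR's adjusted p of 0.05, where 8.54% of all 12981 genes did. An unadjusted p below 0.05 was found for 14 members, where 24% of all genes had one. Of these 6 were higher and 8 lower, beside 13.7% and 10.2% of all genes. The groups did not overlap for 5 members, where 14.5% of all genes did not, and all 5 were lower, as were 5.79% of all genes. DESeq2 called 6 members, with 13.3% called among all genes. At either pseudocount limma called 1, for which no share of all genes is given here. All 6 EphA receptors tested had a log2 fold change below 0, from -1.08 to -0.22, and 3 of 9 plexins and no EphB receptor were at an unadjusted p below 0.05.

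Sema3b had the smallest adjusted p. Its FPKM was 0.67, 2.08, 0.69 and 0.47 in WT and 2.79, 3.03, 1.61 and 2.06 in untreated 5xFAD HPC, and WT replicate 2 lay inside the 5xFAD range. Choroid plexus markers summed to 2795 in that WT library and to 3189 and 2917 in untreated replicates 1 and 2, and their part was not tested. Its log2 fold change was 1.25 ± 0.37 with an adjusted p of 0.0559. Sema4a, a membrane-bound semaphorin that immune cells and oligodendrocyte-lineage cells also carry, was at 11.6, 10.9, 10.9 and 9.92 in WT and 20.8, 10.5, 14.9 and 15.2 in untreated 5xFAD, with a log2 fold change of 0.54 and an adjusted p of 0.0732. The groups overlapped through untreated replicate 2. Of 8 microglia and macrophage markers, the 6 tested were all higher in untreated 5xFAD than in WT HPC at an adjusted p of 0.05, and their part in the Sema4a value was not tested.

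Efnb3 was at 60.5, 54.5, 53.0 and 53.1 in WT and at 23.9, 40.8, 19.4 and 52.2 in untreated 5xFAD. WT and untreated libraries lay apart by less than 1 FPKM, and the log2 fold change was -0.70 with an adjusted p of 0.0780. Epha6, another receptor of ephrin-A ligands, was at 14.2, 11.7, 2.54 and 16.0 in untreated 5xFAD, each below the lowest WT library at 20.4. Its log2 fold change was -1.08, with an adjusted p of 0.0877. Plxnb2 at 0.47 and Plxna1, a plexin for class 3 and class 6 semaphorins, at -0.36 had adjusted p of 0.0780 and 0.0936. Plxnb2 was at 6.87, 8.89, 5.53 and 6.19 in WT and 10.1, 9.02, 7.09 and 11.5 in untreated 5xFAD HPC. Plxna1 was at 4.33, 5.28, 5 and 5.31 in WT but at 3.86, 4.31, 2.95 and 4.27 in untreated 5xFAD HPC. The groups overlapped for Plxnb2 through WT replicate 2 and untreated replicate 3, and lay apart for Plxna1 by a narrow margin.

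Without untreated replicate 3, 3 members passed in edgeR, where 8.79% of all genes did: Epha6 at -0.76 (adjusted p = 0.00421), Plxnb2 at 0.58 (0.0172) and Sema3b at 1.38 (0.0410). The count was also 3 without untreated replicate 2, with 8.99% of all genes, and 2 without untreated replicate 4 or without WT replicate 2, with 13.2% and 6.26%. The 3 remaining untreated libraries held Epha6 at 11.7 to 16.0. In replicate 3 Epha7 was at 7.27 against 35.1 to 55.9 in the rest of its group, Epha4 at 39.3 against 72.1 to 75.7, and Efna5 at 11.1 against 0.87 to 1.94, while Efnb3 at 19.4 was near the 23.9 of replicate 1. The EphA values without it ran from -0.76 to -0.16. CA1 markers summed to 60.4 in it, against 85.4, 118 and 135 in the rest of its group and 153 to 165 in WT libraries, and 7 of 10 meningeal fibroblast markers were higher in untreated 5xFAD at an unadjusted p below 0.05.

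Light-treated 5xFAD HPC was then compared with untreated 5xFAD HPC. An unadjusted p below 0.05 was reached by 21 of 43 members, where 18.3% of all genes reached it. Of these, 11 were higher and 10 lower, beside 8.54% and 9.81% of all genes. The libraries of the groups did not overlap for 9 members, 6 higher and 3 lower, where 7.63% of all genes did not, 3.66% higher and 3.98% lower. At an adjusted p of 0.05 in edgeR were 2 members, where 0.455% of all genes were: Sema5a rose, as did 0.27% of all genes, and Sema4a fell, as did 0.185%. DESeq2 called 8, with 4.94% among all genes. At either pseudocount limma called 1, for which no share of all genes is given here. The count at an unadjusted p ran from 15 to 22 when each library was left out in turn, with 11.4% to 21.3% of all genes, and it was 21 without untreated replicate 3, with 19.8% of all genes. In that setting 9 members did not overlap, where 12.4% of all genes did not.

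Sema5a (ENSMUSG00000022231, chr15:32244810-32696341) encodes a membrane-bound semaphorin with thrombospondin repeats that binds Plxnb3 and, on dentate granule neurons, Plxna2, where it limits synapse formation. Its FPKM was 4.90, 6.56, 2.47 and 4.25 in untreated and 17.4, 16.6, 8.52 and 8.36 in light-treated HPC, with WT libraries at 6.44, 7.83, 5.68 and 8.85. All 4 light-treated libraries lay above all untreated ones, and light-treated replicates 1 and 2 lay above replicates 3 and 4 by a wide gap. The log2 fold change was 1.47 ± 0.29 with an adjusted p of 0.0482, and 1.27 with 0.0606 without untreated replicate 3. Dentate gyrus markers summed to 218, 227, 156 and 148 in the light-treated libraries in the same order, against 144, 131, 21.1 and 147 in untreated ones. Of the 5 dentate markers, 4 were higher at an unadjusted p below 0.05 and none passed the adjusted p, and their part in the Sema5a difference was not tested.

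Sema4a (ENSMUSG00000028064, chr3:88435959-88461182) went the other way. Its FPKM was 20.8, 10.5, 14.9 and 15.2 in untreated and 7.0, 8.03, 7.83 and 8.98 in light-treated HPC, and every light-treated library also lay below the lowest WT library at 9.92. It fell by 0.90 ± 0.18 on the log2 scale, with an adjusted p of 0.0482. Without untreated replicate 3 the value was -0.93, with an adjusted p of 0.0574.

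Both calls depended on the libraries in the fit. They were lost without light-treated replicate 1, 2 or 4 or without untreated replicate 1, 3 or 4, while 1 call remained without light-treated replicate 3 and 5 members passed without untreated replicate 2, with 2.07% of all genes. In a fit of the compared groups alone both adjusted p were 0.162. The log2 fold change stayed between 1.27 and 1.69 for Sema5a and between -1.05 and -0.71 for Sema4a in all 16 alternative settings, and the adjusted p ranged up to 0.179 for each.

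**Figure D3:**
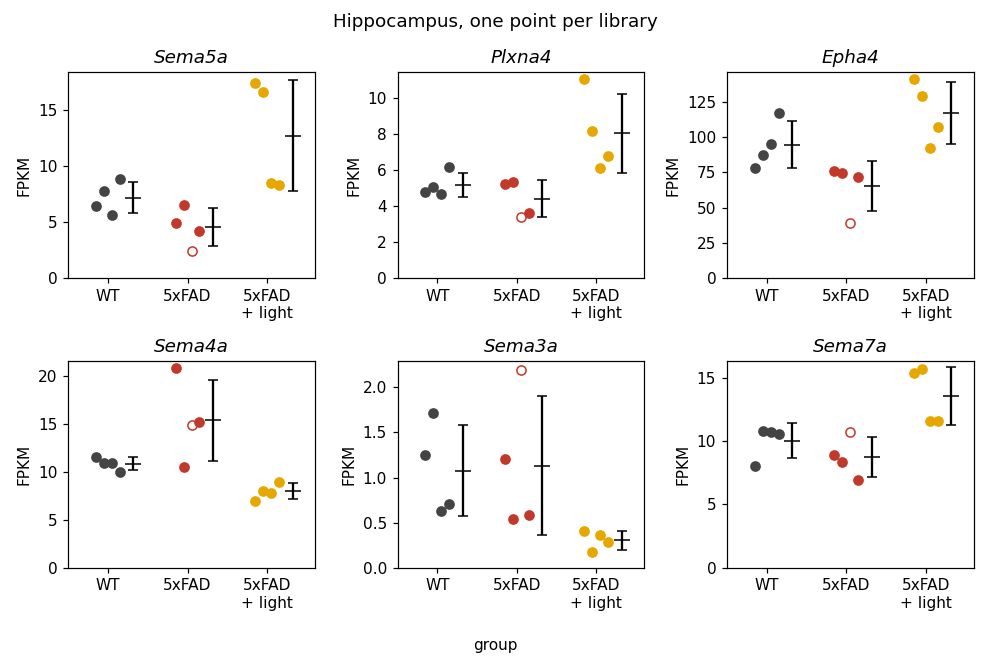
FPKM of 6 members in HPC, with a point for each of 4 libraries per group and the mean with SD beside them; the open point is untreated replicate 3. Light-treated libraries lie above untreated ones for Sema5a, Plxna4, Epha4 and Sema7a and below them for Sema4a and Sema3a.

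The other members at an unadjusted p below 0.05 did not pass the adjusted test in edgeR. Plxna4, which pairs with neuropilin-1 to bind Sema3a, was at 5.23, 5.35, 3.43 and 3.63 in untreated and 11.1, 8.20, 6.11 and 6.80 in light-treated HPC, with a log2 fold change of 0.86 and an adjusted p of 0.0687. Sema3a, the collapsing signal for axons, was at 1.21, 0.54, 2.19 and 0.59 in untreated and 0.41, 0.17, 0.36 and 0.28 in light-treated HPC. Its log2 fold change was -1.94, with an adjusted p of 0.0737, and -1.36 without untreated replicate 3. In both genes the groups did not overlap, though the closest Sema3a libraries were at 0.54 and 0.41.

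Epha4 (chr1:77367185-77515088) was at 75.7, 74.6, 39.3 and 72.1 in untreated and 141, 129, 92.1 and 107 in light-treated HPC. The groups did not overlap, with a log2 fold change of 0.77 and an adjusted p of 0.0803, and 0.61 with 0.0774 without untreated replicate 3. Sema7a, a GPI-anchored semaphorin that binds Plxnc1 and integrins, had a log2 fold change of 0.63 and an adjusted p of 0.0893, with 8.89, 8.32, 10.7 and 6.89 in untreated and 15.4, 15.7, 11.6 and 11.6 in light-treated libraries, which did not overlap. All 6 EphA receptors tested had values above 0, from 0.24 to 0.92, and all 5 class 3 semaphorins tested had values below 0, from -1.94 to -0.18. EphA receptors had a median of 0.68 and class 3 semaphorins of -0.97, beside -0.02 over all genes. Without untreated replicate 3 the EphA values ran from 0.16 to 0.61 with a median of 0.45, and the class 3 values from -1.36 to -0.30 with a median of -0.91. The genotype comparison used the same untreated libraries, so that opposite signs in the 2 comparisons can come from that group alone. For light-treated 5xFAD against WT the EphA median was 0.04 and the class 3 median -0.32. Sema3d was at 1.41, 0.88, 1.37 and 1.17 in untreated and 0.46, 0.42, 0.84 and 0.88 in light-treated HPC, with a log2 fold change of -0.97 and an adjusted p of 0.115. Plxnd1 was at 1.6, 2.21, 3.59 and 1.25 in untreated but at 1.06, 0.99, 1.29 and 1.09 in light-treated HPC, with a log2 fold change of -0.95 and an adjusted p of 0.137, and -0.58 without untreated replicate 3. Epha7 was at 82.8, 89.3, 47.2 and 52.7 in light-treated HPC, and Epha6 at 19.5, 21.9, 15.4 and 18.5. In these 4 genes the libraries of the groups overlapped.

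Of the 7 class 3 semaphorins, 6 were higher in meninges than in HPC of WT mice, so meningeal markers are given beside them. Meningeal fibroblast markers summed to 61.5 to 140 in untreated, 21.3 to 37.3 in light-treated and 40.8 to 75.0 in WT HPC, with all 10 markers above 0 in every library. Of these 10 genes, 3 fell under light in 5xFAD HPC at an adjusted p of 0.05 and 5 were higher in untreated 5xFAD than in WT. Sema3b was at 0.87, 1.07, 1.12 and 1.34 in light-treated HPC, below each untreated library, with a log2 fold change of -1.06 and an adjusted p of 0.164. The choroid plexus marker Ttr was at 3136, 2877, 677 and 197 in untreated and 122, 108, 56.8 and 233 in light-treated HPC. Whether meningeal or choroid plexus tissue in the dissection accounts for a part of these values was not tested.

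Light-treated 5xFAD and WT HPC were also compared, which shares the WT and light-treated mice with the comparisons above. None of 43 members passed in edgeR, where 3.59% of all genes did, and 9 were at an unadjusted p below 0.05, where 16.7% of all genes were. DESeq2 called 2, Sema4c and Plxna4, with 6.73% of all genes, and limma called none. Sema4c, a class 4 semaphorin that binds Plxnb2, was at 1.03, 0.7, 1.14 and 0.75 in WT and 1.34, 1.81, 1.31 and 1.40 in light-treated HPC. The groups did not overlap, and its log2 fold change was 0.76 with an adjusted p of 0.0624. Fitted alone, these groups gave 4 members called, with 8.54% of all genes.

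In meninges, untreated 5xFAD mice were compared with WT mice. None of 43 members passed in edgeR, as for all 14318 genes tested, of which 0% passed. The unadjusted p was below 0.05 for 2 members and for 4.01% of all genes, and DESeq2 and limma called none. Efnb3 was at 9.55, 4.66, 4.46 and 3.53 in WT and at 3.07, 2.91 and 2.52 in untreated 5xFAD, with a log2 fold change of -0.96 and an adjusted p of 0.987. Plxnd1, the receptor of Sema3e on endothelium, was at 4.24, 4.28, 4.05 and 4.63 in WT and at 5.25, 5.46 and 8.14 in untreated 5xFAD. These were the 2 of 43 members whose groups did not overlap, where 4.85% of all genes did not, and Plxnd1 had a log2 fold change of 0.55 with the same adjusted p of 0.987.

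Light-treated 5xFAD meninges gave no member called against untreated 5xFAD meninges in edgeR, where 0.014% of all genes were called. DESeq2 and limma also called no member, and their shares of all genes are not given here. Of 43 members, 10 had an unadjusted p below 0.05, where 12.7% of all genes did. Higher was 1, beside 5.01% of all genes, and 9 were lower, beside 7.71%. The groups did not overlap for 13 members, where 20.8% of all genes did not, with 2 higher and 11 lower, beside 10.1% and 10.7%. The median log2 fold change was -0.31 over the members and 0.04 over all genes. All 8 plexins tested had values below 0, from -1.14 to -0.30.

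Plxna1 was at 1.64, 2.28 and 2.23 in untreated and at 0.98, 0.75 and 1.05 in light-treated meninges. Light-treated libraries lay below all untreated ones, and its log2 fold change was -1.14 ± 0.30, with an adjusted p of 0.286. Ephb2, an EphB receptor of excitatory synapses, was at 2.04, 1.70 and 1.83 in untreated and 0.93, 0.95 and 0.57 in light-treated meninges, with a log2 fold change of -1.16 and an adjusted p of 0.303. Sema6b, a membrane-bound ligand of plexin-A receptors, had a log2 fold change of -1.54, and Sema3f of -1.5, with adjusted p of 0.294 and 0.300. Sema6b was at 1.36, 2.44 and 1.73 in untreated and 0.85, 0.61 and 0.44 in light-treated meninges. Sema3f was at 21.7, 16.2 and 11.2 in untreated but at 8.3, 6.4 and 3.65 in light-treated meninges. Plxna2, a plexin for class 6 semaphorins, was at 5.15, 6.76 and 7.8 in untreated but at 4.43, 4.1 and 3.26 in light-treated meninges, with a log2 fold change of -0.70 and an adjusted p of 0.310. For these 3 genes each light-treated library lay below each untreated one. For Efnb3 the value was 1.11, with 3.07, 2.91 and 2.52 in untreated and 5.10, 9.90 and 3.73 in light-treated meninges and an adjusted p of 0.310. Bone and cartilage markers summed to 118 to 2238 in light-treated and 159 to 332 in untreated meninges, and neuronal markers to 112 to 382 and 93.4 to 244, and their part in these values was not tested.

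Against WT meninges, light-treated 5xFAD meninges gave no call among 43 members in edgeR, where 0.014% of all genes were called. The unadjusted p was below 0.05 for 7 members and for 16.4% of all genes, and DESeq2 called 3, Plxna1, Sema6b and Epha5, with 3.06% of all genes, while limma called none. Plxna1 was at 1.62, 1.74, 2.93 and 2.43 in WT, each above the light-treated libraries, with a log2 fold change of -1.20 and an adjusted p of 0.122. Epha5, a neuronal receptor of ephrin-A ligands, was at 6.56, 1.12, 3.91 and 2.44 in WT and 0.67, 1.53 and 1.23 in light-treated meninges, with a log2 fold change of -1.57 and an adjusted p of 0.164. Efna1 was at 8.87, 16.3, 6.83 and 8.84 in WT and 24.9, 27.1 and 13.9 in light-treated meninges, with a log2 fold change of 1.08 and an adjusted p of 0.171. WT replicate 2 overlapped with the light-treated libraries for both genes. Without WT replicate 2 Epha5 passed, with an adjusted p of 0.0465.

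Whether light had a different effect in meninges than in HPC was tested directly, as the difference of the 2 effects in a fit of 22 libraries. It passed for 3 of 48 members in edgeR, where 1.05% of all 15132 genes passed, and in all 3 the meningeal effect was the lower. An unadjusted p below 0.05 was found for 14 members, where 19.8% of all genes had one. Plxna1 (chr6:89316314-89362620) had a difference of -1.47 ± 0.28 with an adjusted p of 0.0231, from an effect of 0.30 in HPC, 0.20 without untreated replicate 3, and -1.14 in meninges. Its FPKM in HPC was 3.86, 4.31, 2.95 and 4.27 in untreated and 5.08, 4.16, 4.59 and 4.81 in light-treated mice, which overlapped. Plxna1 shares 10.7% of its exon bases with a gene on the opposite strand.

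Sema5a had a difference of -2.24 ± 0.50 with an adjusted p of 0.0410. In meninges it was at 1.38, 1.44 and 1.88 in untreated and 0.78, 0.81 and 1.23 in light-treated mice, which did not overlap, in the direction opposite to HPC. Ephb2 (chr4:136647539-136835988) had a difference of -1.85 ± 0.42 with an adjusted p of 0.0418, and in HPC it was at 0.97, 1.38, 0.92 and 0.58 in untreated and 1.79, 1.85, 1.21 and 1.44 in light-treated mice. Without untreated HPC replicate 3 only Plxna1 passed, with a difference of -1.37 and an adjusted p of 0.0370. No member passed without light-treated HPC replicate 1, untreated meninges replicate 2 or light-treated meninges replicate 2, limma called none, and DESeq2 called 10, with 4.84% of all genes. The difference of the genotype effects between the tissues passed for 0 of 48 members in edgeR, where 1.74% of all genes passed. The unadjusted p was below 0.05 for 7 members and for 12.8% of all genes, and DESeq2 and limma called none.

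**Figure D4:**
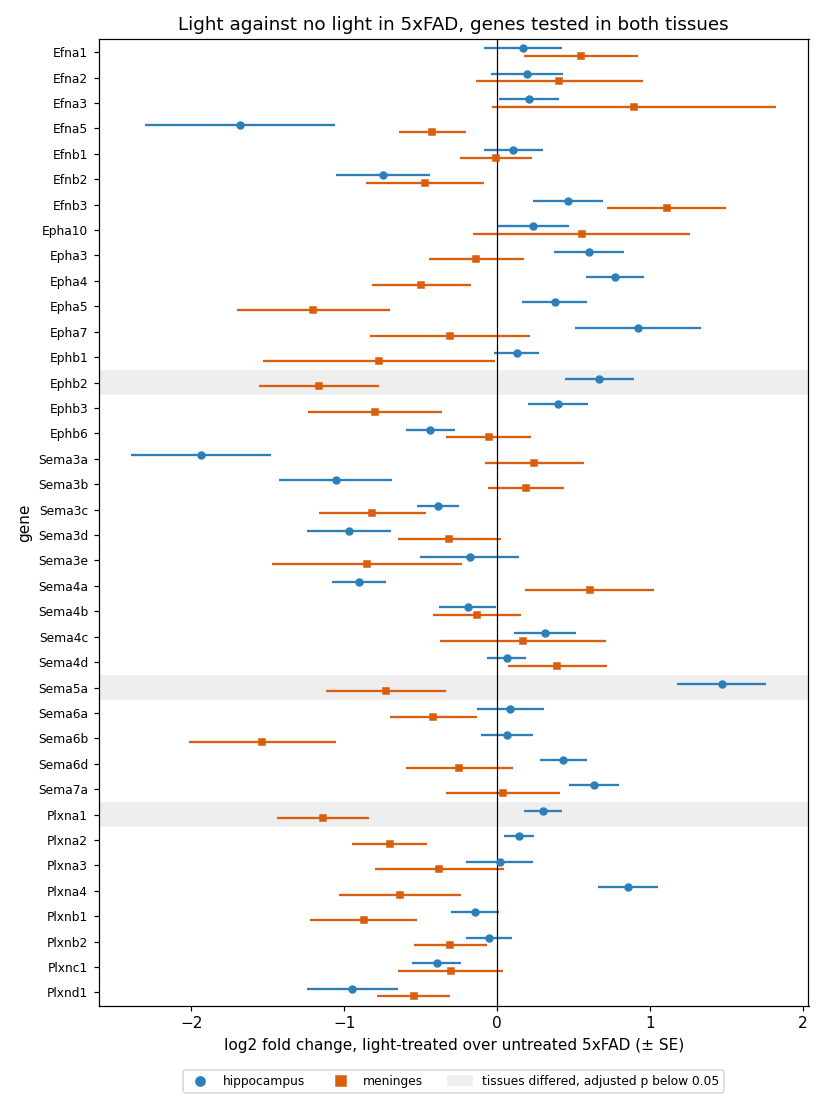
Log2 fold change with SE of light-treated over untreated 5xFAD mice for the 38 members tested in both tissues, in HPC (circles, 4 libraries per group) and meninges (squares, 3 per group). Grey bands mark Plxna1, Sema5a and Ephb2, whose effects differed between the tissues by -1.47, -2.24 and -1.85.

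In mLECs few of the members were read reliably. Counts above 0 were found for 17 to 30 members per library, with a median of 21, against 50 or 51 in HPC and meninges. Above 0 in all 10 libraries were 7 members, 33 were above 0 in some, and 11 were listed at 0 throughout, among them Efnb3, Epha3, Epha6, Ephb2 and Plxna3. The biological coefficient of variation in edgeR was 1.89, beside 0.198 in HPC and 0.350 in meninges.

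Efna1, an ephrin-A ligand that endothelial cells carry, was the leading member in every mLEC library. Its FPKM was 388, 301, 596 and 377 in WT, 771, 312 and 311 in untreated and 523, 553 and 271 in light-treated 5xFAD mLECs, and the groups overlapped. In WT meninges it was at 6.83 to 16.3, on the FPKM of another table. Sema6a was at 119, 43.2, 0.37 and 67.0 in WT mLECs, the second in mean level. Plxnd1 followed at 0.12, 95.6, 30.7 and 2.92, a spread so wide that it and Sema6a could not be ordered. The 7 members above 0 throughout were Efna1, Epha4, Ephb4, Plxna2, Plxnd1, Sema3f and Sema6a.

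Of 21 members tested in mLECs, none passed in edgeR in any of the 3 comparisons, where 0%, 0% and 0.0122% of all 8188 genes passed for untreated against WT, light-treated against untreated and light-treated against WT. At an unadjusted p below 0.05 in edgeR were 1, 2 and 3 members, beside 3.81%, 4.01% and 6.72% of all genes. DESeq2 called 1, 2 and 3 members at its own adjusted p, and limma called none. The share of all genes that DESeq2 called in mLECs is not given here, so these calls are not read as a result about the members. In DESeq2 light-treated mLECs had Sema4d at log2 fold changes of -25.6 against untreated and -24.9 against WT, and Sema4c at -9.07 and -12.6. Such sizes come from groups near 0 and do not measure the change. Sema4d was above 0 in 5 of 10 libraries, and in WT it was at 9.31 in replicate 2 and 0 to 0.39 in the others. The groups did not overlap for 1, 2 and 1 members, where 6.23%, 10.1% and 5.67% of all genes did not. Plxna4 was at 0.07, 0.01, 0.04 and 0 in WT and at 3.69, 5.15 and 4.08 in untreated 5xFAD mLECs, which did not overlap. Light-treated libraries had it at 5.52, 3.83 and 0. Efnb2, the ligand of Ephb4 known from arteries and lymphatic valves, was at 0.12, 0, 0.41 and 4.65 in WT, 5.34, 5.24 and 4.09 in untreated and 15.2, 12.1 and 9.90 in light-treated mLECs. Sema4c was at 29.4, 54.7, 0 and 0.03 in WT, 0.95, 0.25 and 5.58 in untreated and 0, 0.01 and 0 in light-treated mLECs. Without WT replicates 2 and 4 together, no member passed in any of the 3 comparisons. Blood endothelial markers summed to 4202 to 7156 in WT, 3045 to 4793 in untreated and 2453 to 4130 in light-treated mLECs, and lymphatic markers to 38.0 to 6736, 1156 to 4490 and 3079 to 9718, and their part in these values was not tested.

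**Figure D5:**
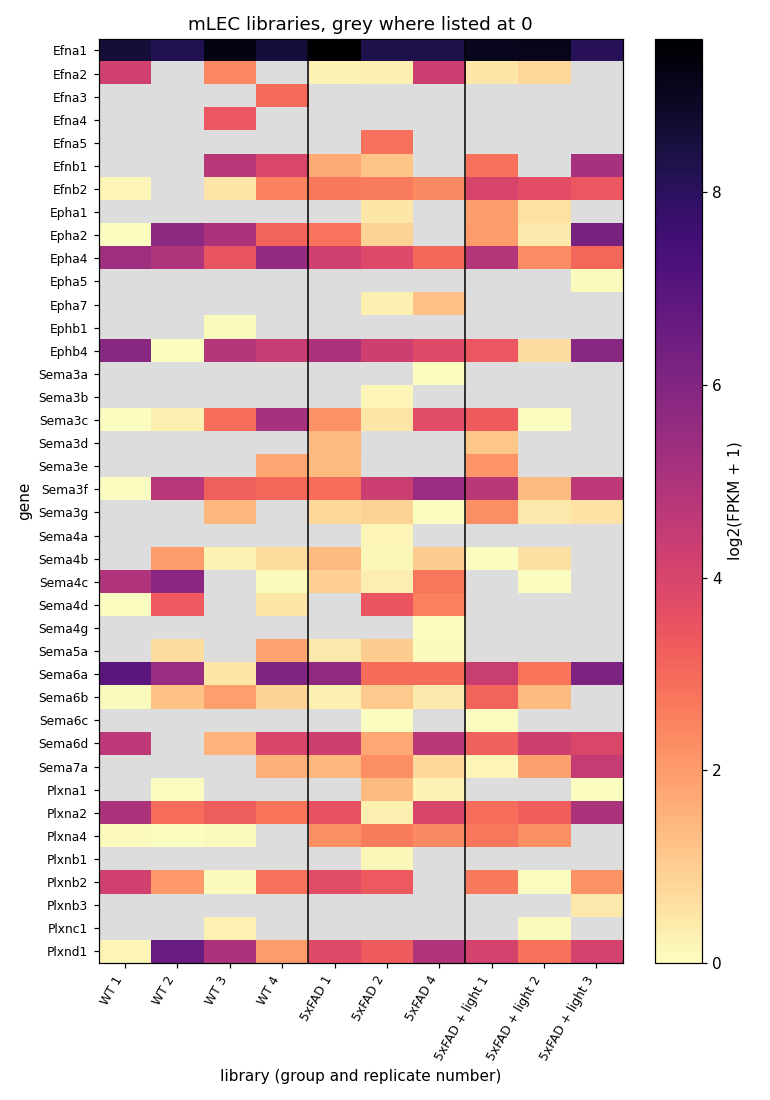
Level of the 40 members above 0 in at least 1 of 10 mLEC libraries as log2(FPKM + 1), with genes in rows, libraries in columns and grey where a gene was listed at 0. Efna1 is dark in every library, at an FPKM of 271 to 771, and most other rows mix values with zeros within a group.

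Other genes of these pathways were counted from lists of co-receptors, cytoplasmic effectors and other guidance families. In untreated 5xFAD against WT HPC, 1 of 6 co-receptors and partners tested was lower, 2 of 34 effectors were higher and 3 lower, and 4 of 23 genes of other guidance families were lower, where 8.54% of all genes were called in either direction. Nrcam, a neuronal adhesion molecule that partners with neuropilins, fell by 0.41 with an adjusted p of 0.0243 in edgeR. Mical2, an oxidase that takes apart actin downstream of plexins, fell by 0.54, Kalrn, a protein of dendritic spines that EphB receptors recruit, by 0.50, and Chn1, the Rac regulator downstream of EphA4, by 0.44, with adjusted p of 0.0150 or lower. Limk1, the kinase of cofilin, rose by 0.77 and Mical1 by 0.61. Dcc, the netrin receptor, fell by 0.72, Dscaml1 by 0.64, Robo2, a Slit receptor, by 0.44 and Slit3 by 0.65, with adjusted p of 0.0393 or lower. Without untreated replicate 3 the counts of the 3 lists were the same, but the genes were not. Slit3, at -0.53, no longer passed in edgeR, with an adjusted p of 0.0740, while Slit1, at -0.43, newly passed with 0.0121.

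In light-treated against untreated 5xFAD HPC, 1 of 34 effectors and 1 of 23 genes of other guidance families passed, and no co-receptor, where 0.455% of all genes passed. Kalrn rose by 0.68 ± 0.10, with an adjusted p of 0.0365, and Dcc rose by 0.89 ± 0.18, with an adjusted p of 0.0482. Neither passed without untreated replicate 3, at 0.64 and 0.74 and an adjusted p of 0.0574 for both. The unadjusted p was below 0.05 for 9 effectors higher and 2 lower, and 10 genes of other guidance families higher and 2 lower, beside 8.54% of all genes higher and 9.81% lower. In meninges no gene of the 3 lists passed under light, and 9 of 34 effectors were lower and 1 was higher at an unadjusted p below 0.05, beside 7.71% and 5.01% of all genes. In WT meninges against WT HPC, 7 of 35 effectors were higher and 19 lower, 9 of 26 genes of other guidance families higher and 15 lower, and 2 of 7 co-receptors higher and 3 lower, beside 39.9% of all genes higher and 33.2% lower. Slit1, a secreted ligand of Robo receptors, had the largest fall of the 3 lists, by 6.73 on the log2 scale.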

How the data were processed

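RNA-seq was analysed from 2 tables, HPC with meninges (22 libraries) and mLECs (10 libraries). The authors deposited expected counts and FPKM per gene, normalised to transcript length and library size. The study's methods name fastp and RSEM, while the submitters' processing notes name Trimmomatic, HISAT2, StringTie, DESeq2 and mm10, and which of these made the tables was not stated. Libraries were not stranded. Expected counts were rounded to whole numbers.

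A gene entered the test where 3 or more libraries of the tissue reached an FPKM of 1. The test used edgeR 4.0.16 in R 4.3.3, the quasi-likelihood method with TMM scaling and all groups of a tissue in 1 fit. WT meninges against WT HPC and the differences between tissues came from a fit of both. P-values were adjusted by Benjamini-Hochberg over all genes tested, and called means an adjusted p below 0.05. Fold changes are log2 with SE. DESeq2 1.42.0, limma 3.58.1 on log2(FPKM + 1) and log2(FPKM + 0.1), and other filters, scalings and left-out libraries were alternatives. The script was tested on simulated counts.

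Per-library values are given for members called within a tissue, otherwise for up to 6 members of smallest unadjusted p. They are also given for up to 6 members of largest change in each direction between the tissues and for the 3 of highest mean FPKM in WT of each tissue, and from each other list up to 4 genes are named. The members and lists were chosen with earlier results of these data known. Per the study's methods each library came from the HPC or meninges of 1 mouse. Total counts give the depth, and precision was limited mostly by the spread between libraries. Promoters came from RefSeq (GRCm38.p6), with letters matched exactly.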

Additional observations from a re-analysis of the deposited data

Results flagged for a closer look

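Each named member in each group of 4 libraries gave a set of 4 values. Among 94 such sets, 7 values lay far from the other 3 of their set by Dixon's test, and chance alone gives about 1 in 20 sets. The sets share libraries and are not independent. In untreated 5xFAD HPC replicate 3, the ligand Efna5 was at an FPKM of 11.1 against 0.87 to 1.94 in the others, and the receptor Epha4 at 39.3 against 72.1 to 75.7. In WT HPC replicate 1, Sema7a was at 8.01 against 10.6 to 10.8.

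In WT meninges, Efna3 was at 0.33 in replicate 2 against 5.29 to 5.61, and Sema3b was at 15.4 in replicate 4 against 21.9 to 22.7. In WT mLECs, Efnb2 was at 4.65 in replicate 4 against 0 to 0.41, and Sema4d was at 9.31 in replicate 2 against 0 to 0.39. These were the mLEC libraries with the lowest summed lymphatic markers.

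The effect of light differed between meninges and HPC for 3 members in edgeR. The difference, meninges less HPC, was -1.47 for Plxna1 (adjusted p = 0.0231), -2.24 for Sema5a (adjusted p = 0.0410) and -1.85 for Ephb2 (adjusted p = 0.0418).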

How the results depend on the processing

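The counts of members called moved as follows. Shares of all genes are given above for some of these settings only, and a count without its share is not a result about the members. With DESeq2 they were 6 for untreated 5xFAD against WT HPC, 8 for light-treated against untreated HPC, 2 for light-treated against WT HPC, 3 for light-treated against WT meninges, 1, 2 and 3 for untreated against WT, light-treated against untreated and light-treated against WT mLECs, and 10 for the difference of light between the tissues. With limma at either pseudocount they were 1 and 1 for the genotype and 1 and 1 for light in HPC, and 0 and 0 for the difference of light. With a mean FPKM of at least 5, 20 members were tested and called between the WT tissues, 0 were called for light in HPC and 0 for the difference of light. Fitted alone, the compared groups gave 0 for light in HPC and 4 for light-treated against WT HPC. A change of at least 2-fold left 1 for light in HPC.

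Without each library in turn, counts ran from 0 to 3 for the genotype and 0 to 5 for light in HPC, 38 to 40 between the WT tissues, 0 to 1 for light-treated against WT meninges and for the difference of genotype, and 0 to 3 for the difference of light. They were 0 to 0 for light-treated against WT HPC, for the other comparisons in meninges and in mLECs. For the difference of light the count was 1 without untreated HPC replicate 1, 3 or 4, light-treated HPC replicate 2, untreated meninges replicate 1 or light-treated meninges replicate 4. For the difference of genotype it was 1 without WT HPC replicate 2.

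Libraries shared replicate numbers across groups. None of 12 same-numbered pairs in HPC correlated above 0.1, 2 of 9 in meninges, 0 of 8 in mLECs and 2 of 10 across the tissues. The best match was the library of the same number for 0, 2, 2 and 5 of these pairs. Whether same-numbered HPC and meninges libraries came from 1 mouse was not stated, and these correlations cannot tell it. The fit of both tissues took all libraries as independent. A replicate block gave 1 member called for the genotype and 1 for light in HPC, where Sema5a passed at an adjusted p of 0.0312 in edgeR and Sema4a did not at 0.0654, and 1 for the difference of light. The share of all genes called with the block is not given here. Of the fold changes of named members in HPC and meninges under these alternatives, 883 kept their direction and side of the threshold, 36 newly passed, 54 no longer passed and none turned its direction. Named members in mLECs were left out of this count, which does not describe their stability. Of the HPC counts at an unadjusted p below 0.05, 40 stayed within 1.5 times and 8 did not. The settings without both WT mLEC libraries of low lymphatic sum, and the unadjusted counts, list values and family medians without untreated HPC replicate 3, were chosen after seeing the data. In mLECs a gene listed at 0 cannot be called absent.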
